A study of Mus musculus with 6 samples.

Results

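Inflammasome and pyroptosis genes encode the machinery by which macrophages sense danger in the cytosol, mature interleukin-1 family cytokines and rupture. The 10 genes described here were taken by symbol from a table of 54532 genes and comprise the sensors Nlrp3, Nlrc4 and Nlrp1b, the secretion-system receptor Naip2, the NLRP3 partner Nek7, the adaptor Pycard (ASC), the inflammatory caspases Casp1 and Casp4 (caspase-11), the pore former Gsdmd and the membrane rupture protein Ninj1. All 10 symbols were found once. Their transcripts were compared between wild type (WT) macrophages and macrophages without progranulin (PGRN KO), the secreted and lysosomal glycoprotein that Grn encodes. Per the labels, both genotypes were on strain C57BL/6J, and peritoneal cells, seeded at 2000000 per well, met live Candida albicans, a yeast that can grow as hyphae, at 1 fungal cell per macrophage for 6 hours. There were 3 WT libraries (replicates 1, 2 and 3) and 3 PGRN KO libraries (replicates 4, 5 and 6), all from challenged cells, and unchallenged cells were not analysed here. The knockout and wild type mice were obtained from different suppliers, so that genotype and supplier cannot be told apart. Mice were matched for sex and age per the study's methods. The age of those that gave these cultures is not stated, and neither is whether the libraries of a group came from separate animals or cultures, so p-values measure the spread between these libraries, which may be technical. The study's text speaks of macrophages grown from bone marrow instead, and gives a different ratio of macrophages to fungal cells for this sequencing. The labels were followed for both.

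In the canonical pathway, a first signal through pattern recognition receptors raises the amount of NLRP3 and pro-IL-1β, and a second signal assembles sensor, ASC and pro-caspase-1 into an inflammasome. Caspase-1 then matures IL-1β and IL-18 and cleaves gasdermin D, whose amino-terminal fragment forms pores, while caspase-11 cleaves gasdermin D after binding lipopolysaccharide. NINJ1 breaks the membrane after the pores have opened. Candida hyphae are a known trigger of NLRP3 in macrophages. Assembly and cleavage are events at the protein level, which transcript levels do not measure.

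The libraries held 15996786 to 17551619 fragments, with a median of 429.75 fragments per library for a tested gene. Grn was at 323.5, 336.6 and 325.0 FPKM (fragments scaled to gene length and library size) in WT and at 0.0166, 0 and 0.0167 FPKM in PGRN KO, 56466 fragments in all against 2. PGRN KO replicate 6 stood apart from the other libraries. Its Pearson correlation with the other PGRN KO libraries was 0.971 to 0.972, against 0.992 between those. Across genes, its deviation from the mean of all 6 libraries, both genotypes together, fell with gene length (Spearman's rho -0.47). The same measure gave a rho of 0.15 to 0.24 in each of the other 5 libraries. Macrophage markers had a summed level of 7090 to 7420 FPKM in WT and 7230 to 9720 FPKM in PGRN KO. Nearly all of it was Lyz2 (means 5745 and 6666 FPKM) and Cd68 (1220 and 1185 FPKM). The highest sum was that of replicate 6, with Lyz2 at 8135 FPKM. Fcgr1 (7.95 and 6.78 FPKM) and Mertk (1.41 and 3.24 FPKM) of the same list were low. Of the resident peritoneal macrophage markers, Gata6 was at 3.95 and 4.50 FPKM, whereas Timd4 was nearly absent, with 16 fragments in WT and 3 in PGRN KO. RNA from bulk cultures cannot tell fewer cells of a type from less RNA per cell.

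The levels of 4 of the 10 genes differed between the genotypes, in opposite directions. Casp1 and Pycard were higher in PGRN KO macrophages, 2.19 and 2.33 times the WT mean in FPKM, whereas Nlrp3 and Nlrc4 were lower, at 0.62 and 0.511 times the WT mean. For Casp4, Gsdmd, Ninj1, Nek7 and Naip2 no difference passed the test, and Nlrp1b was too low to be tested. With limma on log2(FPKM + 1) and Benjamini-Hochberg adjustment over all 8882 tested genes (those with a mean FPKM of at least 1), 4 of the 9 tested members passed an adjusted p of 0.05, beside 2151 of all tested genes (24.2%). By direction, 2 members were higher, beside 921 of all tested genes (10.4%), and 2 were lower, beside 1230 (13.8%). Over all genes called, 42.8% were higher in PGRN KO, and 60.3% when the FPKM of each library were rescaled to the same sum (TPM scale). The median difference was 0.10 over the 9 members and -0.031 over all tested genes on the log2(FPKM + 1) scale, and the medians without sign were 0.28 and 0.25. In 4 members the WT and PGRN KO libraries did not overlap, which was also so for 48.8% of all tested genes. With 3 libraries against 3, an exact two-sided permutation test cannot go below 0.1, the value it gave for these 4 members.

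**Figure D1:**
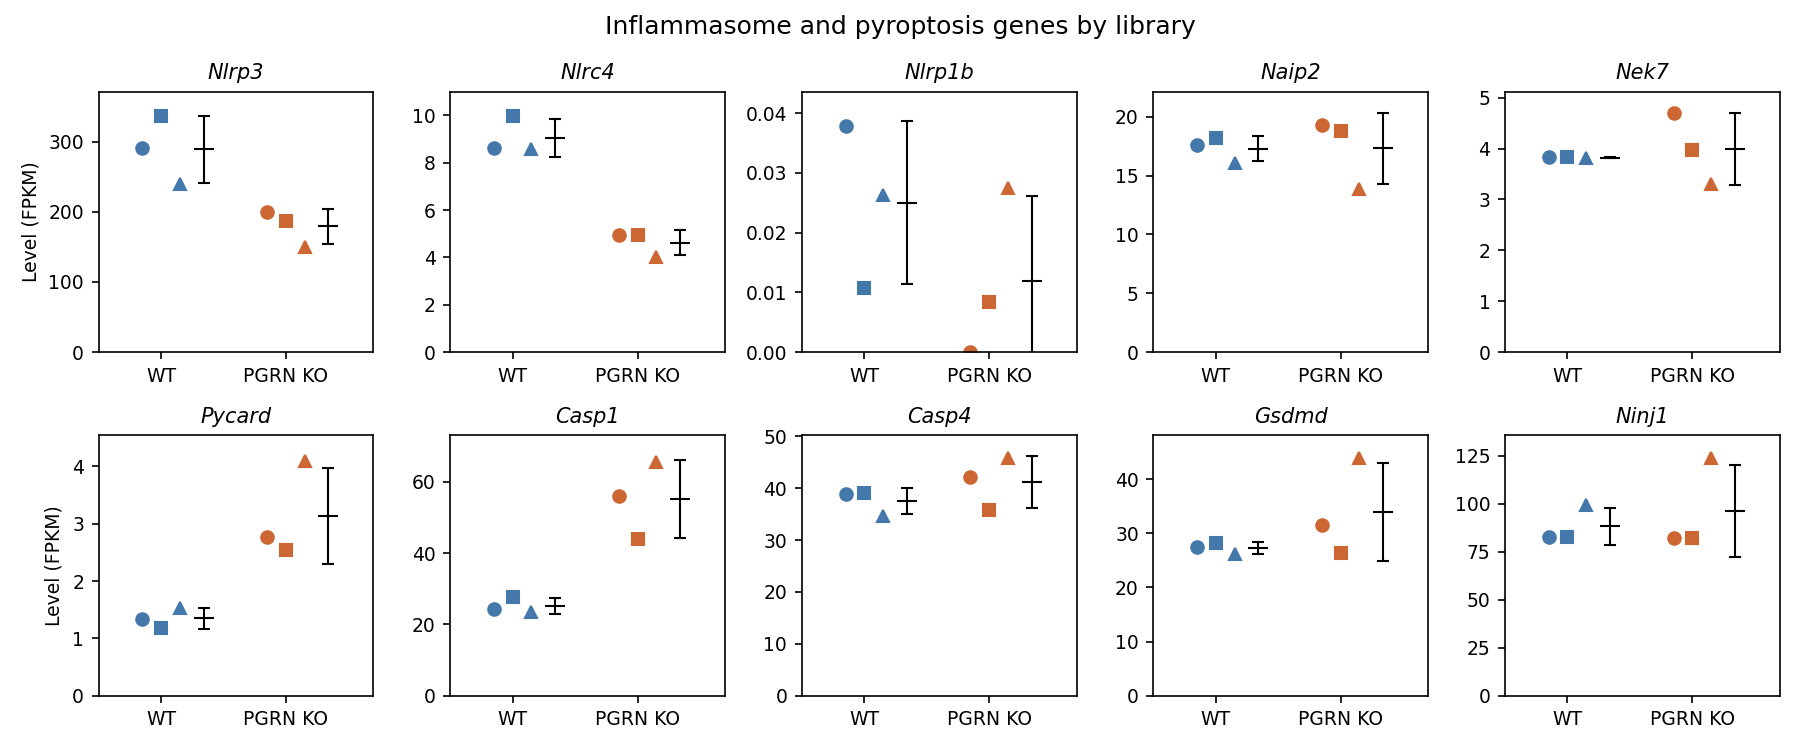
Level of each of the 10 genes in FPKM (y axis, from 0, own scale per panel) in the WT (blue) and PGRN KO (orange) libraries. Circles, squares and triangles are replicates 1, 2 and 3 or 4, 5 and 6, and black bars are the mean and SD of 3 libraries (cut off at 0 for Nlrp1b). Casp1 and Pycard lie higher, and Nlrp3 and Nlrc4 lower, in all 3 PGRN KO libraries than in all 3 WT libraries.

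The sequences around the start sites of the 4 members that differed, and of Casp4 as the neighbour of Casp1, show what lies upstream of these genes. They are RefSeq windows on GRCm38 (GRCm38.p6), from 250 bases before to 50 bases after the start, each read 5′ to 3′ on the gene's own strand, at chr9:5298267-5298566 (plus), chr9:5308599-5308898 (plus), chr7:127993818-127994117 (minus), chr11:59541319-59541618 (plus) and chr17:74459059-74459358 (minus). Capitals mark matches, on either strand, to an interferon-stimulated response element GAAANNGAA, an NF-kB element GGGNNTTTC or a PU.1 core GAGGAAGT.
Casp1: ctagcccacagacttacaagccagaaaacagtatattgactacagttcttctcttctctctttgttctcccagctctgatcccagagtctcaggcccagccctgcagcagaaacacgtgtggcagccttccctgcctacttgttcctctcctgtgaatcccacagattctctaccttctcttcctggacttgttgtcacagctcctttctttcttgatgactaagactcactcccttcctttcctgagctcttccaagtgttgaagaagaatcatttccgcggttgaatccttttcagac
Casp4: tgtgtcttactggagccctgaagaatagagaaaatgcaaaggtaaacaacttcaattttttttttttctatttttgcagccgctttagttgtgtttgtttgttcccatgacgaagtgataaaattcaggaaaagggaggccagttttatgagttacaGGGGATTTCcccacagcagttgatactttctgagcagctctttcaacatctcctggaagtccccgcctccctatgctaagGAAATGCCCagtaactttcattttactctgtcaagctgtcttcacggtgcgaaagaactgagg
Pycard: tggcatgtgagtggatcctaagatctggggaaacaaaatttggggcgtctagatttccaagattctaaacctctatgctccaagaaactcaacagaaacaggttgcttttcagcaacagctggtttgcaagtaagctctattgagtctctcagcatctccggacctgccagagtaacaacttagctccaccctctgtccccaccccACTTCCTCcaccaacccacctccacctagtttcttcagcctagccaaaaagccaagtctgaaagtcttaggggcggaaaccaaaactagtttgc
Nlrp3: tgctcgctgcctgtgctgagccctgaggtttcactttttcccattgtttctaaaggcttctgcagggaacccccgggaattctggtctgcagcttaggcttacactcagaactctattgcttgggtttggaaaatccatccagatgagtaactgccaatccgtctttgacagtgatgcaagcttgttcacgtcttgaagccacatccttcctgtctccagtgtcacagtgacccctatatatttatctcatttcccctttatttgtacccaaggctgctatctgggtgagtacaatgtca
Nlrc4: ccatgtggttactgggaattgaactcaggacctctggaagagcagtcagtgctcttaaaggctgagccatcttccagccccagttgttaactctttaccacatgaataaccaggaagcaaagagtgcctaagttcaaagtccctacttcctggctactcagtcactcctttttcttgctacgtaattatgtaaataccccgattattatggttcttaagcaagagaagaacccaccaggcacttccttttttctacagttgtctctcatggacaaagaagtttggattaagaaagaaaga
The Casp4 window held NF-kB matches whose first bases lay 93 and 13 bases before the start. In the Pycard window a PU.1 core on the opposite strand began 44 bases before the start. None of the 3 motifs was found in the windows of Casp1, Nlrp3 and Nlrc4, nor in those of Ninj1 and Nek7. Of the windows not shown, that of Naip2 held an interferon-stimulated response element 4 bases and an NF-kB element 149 bases before the start, and that of Nlrp1b a PU.1 core 96 bases before it. Of the 10 genes, 9 had a window, and Gsdmd is named only. Among all 32817 windows of the table, the interferon-stimulated response element was found in 8.6%, the NF-kB element in 4.4% and the PU.1 core in 3.2%. A match of letters is a description and does not show binding.

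Nlrp3, the sensor of potassium efflux and membrane damage (ENSMUSG00000032691, GRCm38 chromosome 11, 59541568 to 59566956), had the highest level per length of the 10 genes in both genotypes. It was at 290.7, 336.1 and 239.9 FPKM in WT replicates 1, 2 and 3 and at 199.6, 187.2 and 150.5 FPKM in replicates 4, 5 and 6 of PGRN KO. The lowest WT library lay above the highest PGRN KO library. The mean was 288.9 ± 48.1 FPKM in WT against 179.1 ± 25.5 FPKM in PGRN KO (SD, n = 3 each), and the difference in log2(FPKM + 1) was -0.68 ± 0.16 (SE; 95% confidence interval -1.07 to -0.30; limma adjusted p = 0.0253). This call was lost when WT replicate 1, WT replicate 2 or PGRN KO replicate 5 was left out, with an adjusted p of up to 0.0992 over all alternatives. Without PGRN KO replicate 6 the difference was -0.56 ± 0.14 (adjusted p = 0.0209).

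Nlrc4, which assembles on NAIP proteins that have bound bacterial flagellin or secretion-system parts (ENSMUSG00000039193, chromosome 17, 74425438 to 74459142), was at 8.63, 9.96 and 8.55 FPKM in WT and at 4.93, 4.93 and 4.03 FPKM in PGRN KO. Every PGRN KO library lay below every WT library. The mean fell from 9.05 ± 0.79 to 4.63 ± 0.52 FPKM (SD, n = 3 each), a difference of -0.84 ± 0.11 (SE) in log2(FPKM + 1) with a limma adjusted p of 0.00372. The call was kept in 15 of 15 alternatives, with differences between -0.97 and -0.74. The upstream receptor Naip2, which binds the inner rod protein of bacterial secretion systems, was at 17.6, 18.2 and 16.1 FPKM in WT and at 19.3, 18.8 and 13.8 FPKM in PGRN KO. Its groups overlapped, and the difference was -0.01 ± 0.14 (SE; 95% confidence interval -0.34 to 0.31; limma adjusted p = 0.957). Naip2 (ENSMUSG00000078945, chromosome 13, 100144063 to 100202092) lies among near-identical relatives, and 32.8% of the 31-base stretches of its transcripts also occur in transcripts of other genes, mostly Naip1, so its level is uncertain.

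The sensor Nlrp1b (ENSMUSG00000070390, chromosome 11, 71153102 to 71230733) was almost absent. It had 4, 1 and 3 fragments in the WT libraries and 0, 1 and 3 in the PGRN KO libraries, 8 against 4 in all, and was not tested. No difference was detectable at this depth. Nek7, the kinase that bridges NLRP3 subunits (ENSMUSG00000026393, chromosome 1, 138482875 to 138620141), was at 3.83, 3.83 and 3.81 FPKM in WT and at 4.71, 3.97 and 3.30 FPKM in PGRN KO. The WT libraries were close together and lay inside the PGRN KO range. Its difference was 0.04 ± 0.12 (SE; 95% confidence interval -0.24 to 0.32; limma adjusted p = 0.825).

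Pycard, the adaptor ASC that links sensors to pro-caspase-1 (ENSMUSG00000030793, chromosome 7, 127989708 to 127993867), was at 1.34, 1.17 and 1.53 FPKM in WT and at 2.77, 2.54 and 4.10 FPKM in PGRN KO. These values came from 85, 66 and 105 fragments in WT and 182, 183 and 269 fragments in PGRN KO. The groups did not overlap, and replicate 6 was the highest library. The mean was 1.35 ± 0.18 FPKM in WT against 3.13 ± 0.84 FPKM in PGRN KO (SD, n = 3 each), and the difference in log2(FPKM + 1) was 0.80 ± 0.15 (SE; 95% confidence interval 0.44 to 1.17; limma adjusted p = 0.013). At this low level the added 1 shrinks the difference, which was 1.18 when limma voom was run on the recovered fragments. The call was lost without WT replicate 1 and without WT replicate 2, with an adjusted p of up to 0.0595 over all alternatives, and without PGRN KO replicate 6 the difference was 0.64 ± 0.10 (adjusted p = 0.00414). The level per length rests on a gene model of 3800 bases, whereas the annotation also holds a transcript of 493 bases. Of the model, 485 exonic bases overlap Gm45205 on the opposite strand, and since the use of strand in counting is not given, fragments of this stretch may have been left out or misplaced. Gm45205 itself had 3 fragments over the 6 libraries, 1 in WT and 2 in PGRN KO.

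Casp1, the protease that matures IL-1β and IL-18 (ENSMUSG00000025888, chromosome 9, 5298517 to 5307265), showed the largest difference of the 9 tested members in this fit. It was at 24.2, 27.8 and 23.5 FPKM in WT and at 56.1, 43.9 and 65.5 FPKM in PGRN KO. The lowest PGRN KO library was above the highest WT library. The mean was 25.2 ± 2.27 FPKM in WT against 55.2 ± 10.9 FPKM in PGRN KO (SD, n = 3 each), and the difference in log2(FPKM + 1) was 1.09 ± 0.16 (SE; 95% confidence interval 0.72 to 1.45; limma adjusted p = 0.0052). The call was kept in 15 of 15 alternatives, with differences between 0.95 and 1.24.

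Casp4, which encodes caspase-11 of the non-canonical pathway (ENSMUSG00000033538, chromosome 9, 5308828 to 5336783), starts within a few kilobases downstream of Casp1 on the same strand. It was at 38.8, 39.1 and 34.7 FPKM in WT and at 42.2, 35.8 and 45.8 FPKM in PGRN KO. The groups overlapped, and the difference was 0.13 ± 0.11 (SE; 95% confidence interval -0.14 to 0.40; limma adjusted p = 0.444). The next gene of this caspase cluster, Casp12, had 1 fragment in WT and 5 in PGRN KO over 3 libraries each. In FPKM, Casp4 was thus above Casp1 in every WT library and below it in every PGRN KO library. This crossing depends on the Casp4 gene model of 3710 bases, whereas its longest annotated transcript has 1901 bases. Casp1 has a single annotated transcript of 1497 bases. With a shorter Casp4 model its level per length would be higher in all libraries alike, so which gene lies above the other is uncertain. The ratio of Casp4 to Casp1 in FPKM was 1.60, 1.41 and 1.48 in WT and 0.753, 0.817 and 0.698 in PGRN KO, a difference of -0.98 in log2 ratio (exact two-sided permutation test, p = 0.1, the smallest that 3 against 3 libraries allow). Such a ratio within a library does not depend on the scaling between libraries. Given the ranges of Casp4 and Casp1 in each genotype, the ratios had to separate. The test of this ratio therefore adds no support to the call of Casp1.

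Gsdmd, the gasdermin that forms the pores of pyroptosis (ENSMUSG00000022575, chromosome 15, 75862327 to 75867408), was at 27.4, 28.2 and 26.1 FPKM in WT and at 31.5, 26.4 and 44.0 FPKM in PGRN KO. The WT libraries lay below replicates 4 and 6, further below replicate 6, and replicate 5 lay within their range. The difference was 0.28 ± 0.18 (SE; 95% confidence interval -0.14 to 0.69; limma adjusted p = 0.286), and 0.08 ± 0.08 (adjusted p = 0.487) without replicate 6. Ninj1, the executor of membrane rupture (ENSMUSG00000037966, chromosome 13, 49187485 to 49196244), was at 82.7, 82.5 and 99.4 FPKM in WT and at 82.3, 82.1 and 124.0 FPKM in PGRN KO. Again replicate 6 was the highest library, and the other PGRN KO libraries were level with the lower WT libraries. The difference for Ninj1 was 0.10 ± 0.18 (SE; 95% confidence interval -0.32 to 0.53; limma adjusted p = 0.708) and changed sign without replicate 6, to -0.10 ± 0.09 (adjusted p = 0.443). The ratio of Gsdmd to Ninj1 was 0.331, 0.342 and 0.263 in WT and 0.382, 0.322 and 0.354 in PGRN KO, and these groups overlapped (exact two-sided permutation test, p = 0.3).

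**Figure D2:**
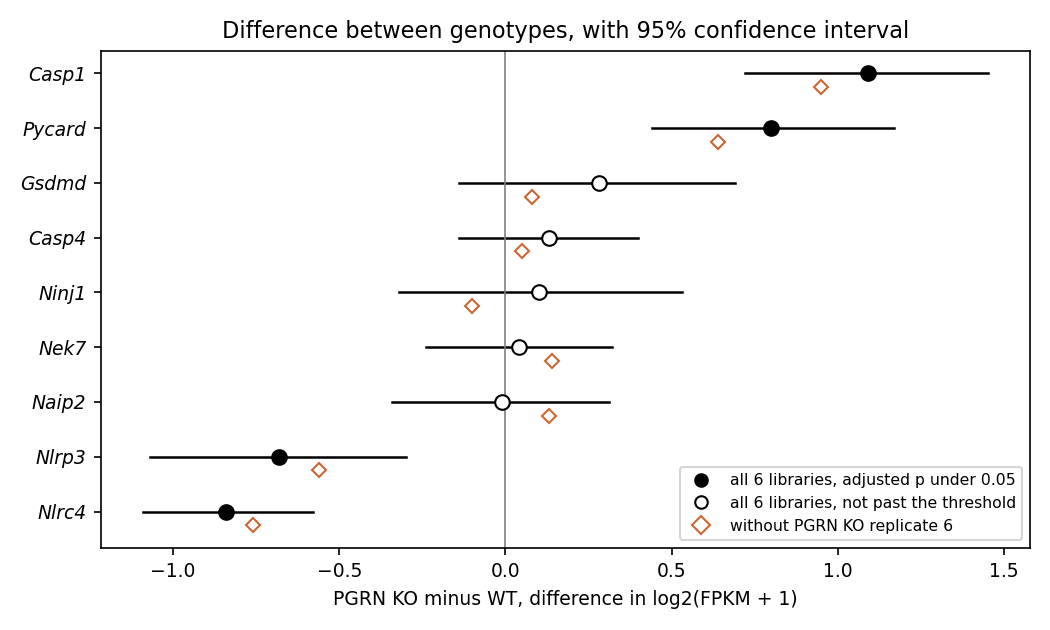
Difference PGRN KO minus WT in log2(FPKM + 1) (x axis) for the 9 tested members, ordered by size. Circles with lines are the estimate and its 95% confidence interval from all 6 libraries (filled where the adjusted p was under 0.05), and open diamonds are the estimate without PGRN KO replicate 6; Casp1 (1.09) and Nlrc4 (-0.84) lie at the ends, and the interval of each open circle includes 0.

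The order of the genes by level per length differed between the genotypes in its middle. In WT it ran Nlrp3, Ninj1, Casp4, Gsdmd, Casp1, Naip2, Nlrc4, Nek7, Pycard and Nlrp1b, and the neighbours Gsdmd and Casp1 overlapped in their ranges. In PGRN KO it ran Nlrp3, Ninj1, Casp1, Casp4, Gsdmd, Naip2, Nlrc4, Nek7, Pycard and Nlrp1b. There the ranges of Casp1 and Casp4, of Casp4 and Gsdmd, of Nlrc4 and Nek7, and of Nek7 and Pycard overlapped. The place of Casp4 in both orders rests on its gene model of 3710 bases, which is longer than any of its annotated transcripts. The distance between the sensor and its adaptor narrowed. The ratio of Nlrp3 to Pycard in FPKM was 217, 286 and 157 in WT and 72.2, 73.6 and 36.7 in PGRN KO, a fold of 3.68 between the geometric means. All 3 PGRN KO ratios were below all 3 WT ratios (exact two-sided permutation test, p = 0.1, the smallest possible). This had to be so, since Nlrp3 was lower and Pycard higher in every PGRN KO library than in every WT library. The test of this ratio therefore adds no support to the calls of these genes. The size of this ratio depends on the Pycard gene model, which is the same in all libraries.

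**Figure D3:**
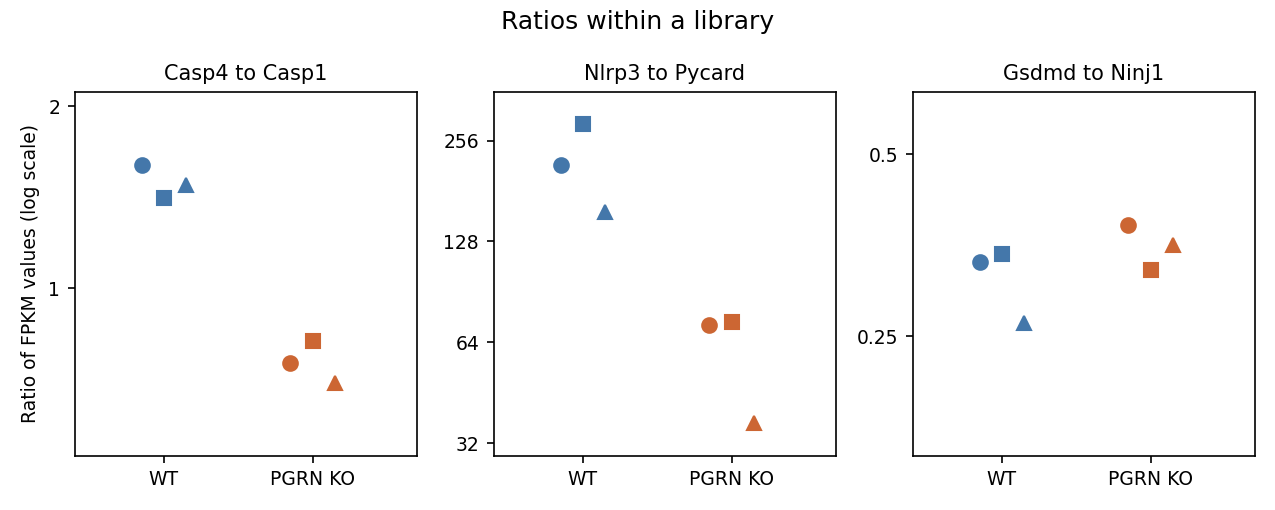
Ratios of FPKM values within a library (y axis, log scale, own range per panel) for WT (blue) and PGRN KO (orange), 1 symbol per library, with circles, squares and triangles as replicates 1, 2 and 3 or 4, 5 and 6. Casp4 to Casp1 and Nlrp3 to Pycard separate the genotypes, whereas Gsdmd to Ninj1 overlaps.

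In PGRN KO replicate 6 the members' deviations separated by gene length. In this library, relative to the mean of replicates 4 and 5, the 5 members with gene models of 1497 to 3800 bases were higher, by 0.39 (Casp1), 0.59 (Ninj1), 0.59 (Gsdmd), 0.23 (Casp4) and 0.48 (Pycard) in log2(FPKM + 1). The 4 tested members with models of 4057 to 7376 bases were lower in replicate 6, at -0.36 (Nlrp3), -0.24 (Nlrc4), -0.44 (Naip2) and -0.31 (Nek7). The 2 members called higher are among the shorter and the 2 called lower among the longer, so replicate 6 lies on the side of each call. All 4 calls were also made without replicate 6, with Casp1 at 0.95 ± 0.12 (limma adjusted p = 0.00243) and Nlrc4 at -0.76 ± 0.08 (adjusted p = 0.00139), and 3668 of all tested genes passed in that fit. The 4 calls were also made when each library was corrected for gene length. Why replicate 6 stood apart was not tested.

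**Figure D4:**
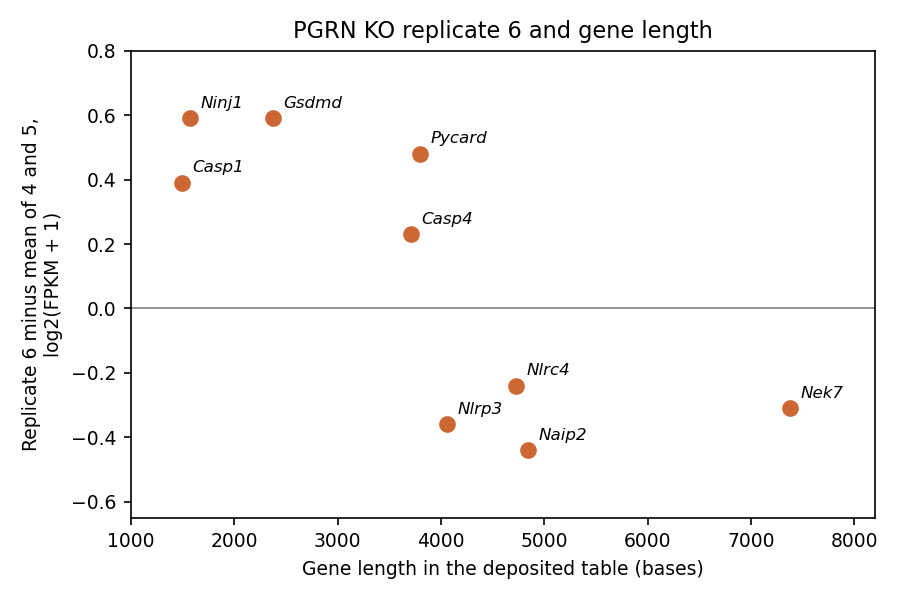
Level in PGRN KO replicate 6 minus the mean of replicates 4 and 5 in log2(FPKM + 1) (y axis) against the gene length in the table in bases (x axis), 1 point for each of the 9 tested members. The 5 shorter genes lie above 0 and the 4 longer genes below it.

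Other genes of the pathway were followed in lists chosen by function, 81 symbols of which 78 were found and 59 tested. Of these 59, 13 were higher and 7 lower in PGRN KO and 39 did not pass, beside 10.4% higher and 13.8% lower among all tested genes, with a median difference of 0.07 in log2(FPKM + 1). These counts depended on single libraries. The 20 calls became 10 when WT replicate 1, 2 or 3 was left out in turn, and 13 when PGRN KO replicate 4 was. Of the 7 lower calls, 2 were left on the TPM scale.

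Among the other sensors, 3 of 5 tested genes were higher and the other 2 did not pass (median 0.63). Nod1, a receptor for bacterial peptidoglycan fragments, rose from 1.10 ± 0.22 to 4.28 ± 0.78 FPKM (SD, n = 3 per genotype), by 1.33 ± 0.14 in log2(FPKM + 1) (limma adjusted p = 0.00207). Naip5 and Naip6, receptors for flagellin, were higher by 0.75 ± 0.16 and 0.63 ± 0.18 (limma adjusted p = 0.0179 and 0.0453), but 53.1% and 35.0% of their 31-base stretches occur in other genes, so fragments may have been split between paralogs. Naip6, at 0.868 FPKM in WT against 1.94 FPKM in PGRN KO, was tested only through its PGRN KO values, so its place in the count of 3 is no support. The Naip5 and Naip6 calls were lost when any 1 WT library was left out. Aim2, the sensor of cytosolic DNA, was at 19.5 ± 1.30 FPKM in WT against 19.3 ± 1.42 FPKM in PGRN KO (difference -0.02 ± 0.10, limma adjusted p = 0.896). Nlrp1a, the close relative of Nlrp1b, had 17 fragments in WT and 18 in PGRN KO and was not tested. In the sensor list, Aim2 was the gene with the highest level among those that did not pass.

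Of the other caspases and gasdermins, 3 of 5 tested genes were higher and the other 2 did not pass (median 0.52). Among them, Casp8, the initiator caspase of death receptors, was at 19.7 ± 0.81 FPKM in WT against 28.8 ± 3.48 FPKM in PGRN KO (SD, n = 3 each; 0.52 ± 0.11, limma adjusted p = 0.0155), a call lost when any 1 WT library was left out. Casp9, the initiator of the mitochondrial pathway, was at 2.97 and 3.04 FPKM (difference 0.02 ± 0.11, limma adjusted p = 0.895). Of the 11 tested genes for gasdermin D modification and membrane repair, 0 passed with limma (median 0.11), while 2 had an unadjusted p under 0.05 and 0 passed with voom on the recovered fragments. The most abundant of these, Chmp4b, a subunit of the ESCRT-III complex that removes damaged membrane, was at 227.2 ± 7.91 and 266.1 ± 83.3 FPKM (0.18 ± 0.20, limma adjusted p = 0.537), with 361.0 FPKM in replicate 6 alone.

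The substrates of caspase-1 differed from each other. Il18, which encodes the IL-18 precursor, was at 4.81, 6.23 and 3.92 FPKM in WT and at 13.7, 9.22 and 12.4 FPKM in PGRN KO. The PGRN KO libraries were all above the WT libraries (difference 1.09 ± 0.19, limma adjusted p = 0.00863). Il1b, which encodes the IL-1β precursor, was at 5227, 6310 and 4121 FPKM in WT and at 4603, 4284 and 5194 FPKM in PGRN KO. Its groups overlapped (difference -0.14 ± 0.18, 95% confidence interval -0.57 to 0.30, limma adjusted p = 0.617). Il1rn, which encodes the IL-1 receptor antagonist, was lower, at 1853 ± 129 FPKM in WT against 1352 ± 39.0 FPKM in PGRN KO (-0.45 ± 0.11, limma adjusted p = 0.0259), a call lost without WT replicate 1, 2 or 3 or PGRN KO replicate 4 or 5. In all, 1 of the 6 tested cytokine and antagonist genes was higher and 1 lower (median -0.05).

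For activation and licensing of NLRP3, 1 of 12 tested genes was higher and 3 were lower (median -0.04). The purinergic receptors for extracellular ATP moved apart. P2rx7, whose opening lets potassium leave the cell, fell from 6.31 ± 0.42 to 3.59 ± 0.38 FPKM (-0.67 ± 0.10, limma adjusted p = 0.00576), whereas P2rx4 rose from 11.4 ± 0.19 to 19.5 ± 1.44 FPKM (0.72 ± 0.09, limma adjusted p = 0.00309). Both calls were kept in every alternative in which the gene was tested. Mapk8, which encodes the kinase JNK1 that phosphorylates NLRP3, and Kcnk6, which encodes the potassium channel TWIK2, were lower by smaller amounts (-0.43 ± 0.12 and -0.47 ± 0.14, limma adjusted p = 0.0434 and 0.0479), and both calls were lost on the TPM scale and when any 1 WT library was left out. The Mapk8 call was also lost after the gene length correction (-0.24, limma adjusted p = 0.0621). Eif2ak2, which encodes the kinase PKR, was at 34.7 ± 3.77 and 46.0 ± 9.16 FPKM (0.38 ± 0.16, limma adjusted p = 0.129), and passed without replicate 6 (0.54, adjusted p = 0.00921) and with sample quality weights (adjusted p = 0.00211).

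Among inhibitors and regulators, 1 of 9 tested genes was higher and 1 lower (median -0.05). Serpinb1a, an inhibitor of neutrophil serine proteases that also restrains inflammatory caspases, was at 15.8, 15.2 and 15.3 FPKM in WT and at 33.3, 34.6 and 41.6 FPKM in PGRN KO. The groups were far apart (1.18 ± 0.11, limma adjusted p = 0.0014). March7, a ubiquitin ligase that targets NLRP3, was at 13.7 ± 1.06 and 9.84 ± 1.57 FPKM (-0.44 ± 0.13, limma adjusted p = 0.0483), a call lost after quantile normalization, on the TPM scale and when any 1 WT library was left out. Tnfaip3, which encodes the deubiquitinase A20, was at 181.8 ± 42.4 and 119.2 ± 18.4 FPKM without passing (-0.59 ± 0.19, limma adjusted p = 0.0666), except with sample quality weights (adjusted p = 0.0273).

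Guanylate-binding proteins coat vacuoles and cytosolic bacteria and bring lipopolysaccharide to caspase-11, and 3 of the 4 tested genes were higher (median 1.42). Gbp2, Gbp3 and Gbp5 were at 96.3, 49.1 and 29.4 FPKM in WT and at 251.2, 138.2 and 82.8 FPKM in PGRN KO, with differences of 1.38, 1.47 and 1.49 (SE 0.20, 0.18 and 0.23; limma adjusted p = 0.00521, 0.00343 and 0.00624). Gbp7 was at 51.5, 42.2 and 24.3 FPKM in PGRN KO and at 23.2, 26.3 and 18.6 FPKM in WT, and its groups overlapped through replicate 6 (0.71 ± 0.27, limma adjusted p = 0.0983). It passed without replicate 6 (1.02, limma adjusted p = 0.00421), with sample quality weights (adjusted p = 0.000883) and after the gene length correction (adjusted p = 0.0494). Among 7 tested necroptosis and death-domain genes, 1 was higher and 2 were lower (median -0.05). Mlkl, the pore former of necroptosis, was at 35.3 ± 3.24 FPKM in WT against 73.7 ± 11.7 FPKM in PGRN KO (1.03 ± 0.14, limma adjusted p = 0.00443). Fadd and Ripk1, an adaptor and a kinase of death receptor signalling, were lower by less (-0.39 ± 0.09 and -0.33 ± 0.09, limma adjusted p = 0.0198 and 0.0415), and both calls were lost on the TPM scale and when any 1 WT library was left out. After the gene length correction Ripk1 was at -0.19 and did not pass (limma adjusted p = 0.11). Zbp1, a nucleic acid sensor upstream of RIPK3, was at 62.4 ± 6.49 and 73.1 ± 11.01 FPKM (0.22 ± 0.14, limma adjusted p = 0.276).

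**Figure D5:**
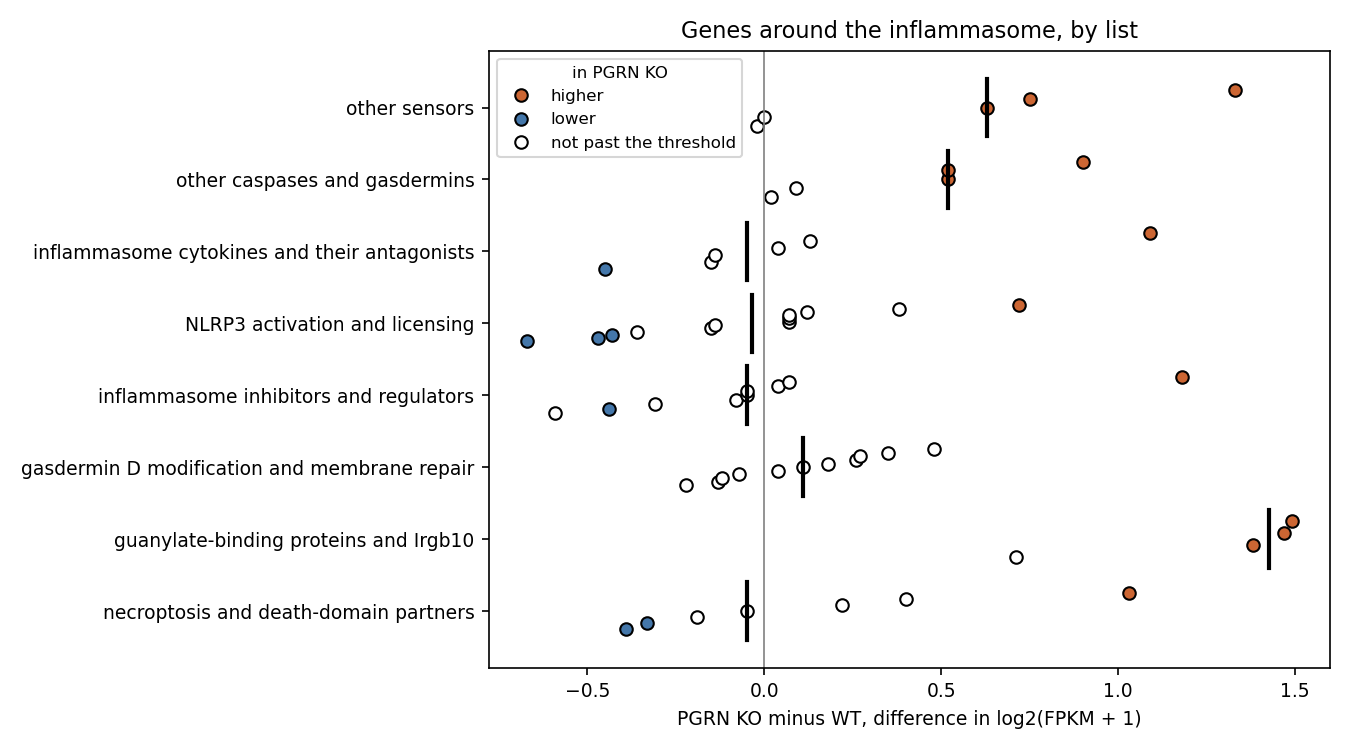
Difference PGRN KO minus WT in log2(FPKM + 1) (x axis) for the 59 tested genes of the pathway lists (y axis), 1 circle per gene, with vertical bars as list medians. Orange and blue circles are genes called higher (13) and lower (7) in PGRN KO, and white circles the 39 that did not pass; the guanylate-binding proteins have the highest median (1.42).

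Apart from S100a8 of the neutrophil list, markers of other cells were low. The sums of the lists of other cells did not overlap between the genotypes, except for that of eosinophils. Single markers did not all follow the sum of their list. B cell markers summed to 1.5 to 2.49 FPKM in WT and 6.62 to 8.92 FPKM in PGRN KO. The mean of each of the 5 markers was higher in PGRN KO, and none was at 0 in all libraries. Mast cell markers summed to 2.23 to 3.19 FPKM and 9.31 to 13.9 FPKM. The means of 4 of the 5 were higher in PGRN KO, whereas that of Kit was lower (0.345 FPKM in WT against 0.21 FPKM in PGRN KO). For the B cell and mast cell lists no count of calls is given, since Cd79a, Cd79b and Cma1 passed the filter on low values through the PGRN KO libraries. The neutrophil list went the other way, from 48.7 to 53.1 FPKM in WT to 21.5 to 26.5 FPKM in PGRN KO. Nearly all of it was S100a8, the only 1 of 7 markers that was tested, which was lower in PGRN KO (-1.07, limma adjusted p = 0.00142). Ly6g and Cxcr2, which define neutrophils, were at 0 in all 6 libraries. T and NK cell markers summed to 0.783 to 0.949 FPKM in WT and 1.29 to 1.62 FPKM in PGRN KO. The means of Cd3d, Cd3e and Cd3g were higher in PGRN KO, whereas those of the NK cell markers Ncr1 and Klrb1c were not. Dendritic cell markers summed to 1.77 to 2.23 FPKM and 1.08 to 1.36 FPKM, with Cd209a at 0 in all libraries. The means of Flt3 and Xcr1 were lower in PGRN KO, whereas that of Zbtb46 was higher (0.55 FPKM in WT against 0.698 FPKM). Mesothelial and fibroblast markers summed to 0.236 to 0.496 FPKM and 0.629 to 1.24 FPKM. The means of Col1a1, Col3a1 and Wt1 were higher in PGRN KO, whereas those of Msln and Upk3b were lower. Eosinophil markers summed to at most 0.249 FPKM, with Epx and Prg2 at 0. Resident peritoneal macrophage markers summed to 319 to 337 FPKM and 279 to 301 FPKM, nearly all of it Cd9, which did not pass (-0.21, limma adjusted p = 0.138), while Icam2 of the same list was higher (0.57, limma adjusted p = 0.00914). Among the 7 macrophage markers, Csf1r was lower (-0.38, limma adjusted p = 0.0178) and Mertk higher (0.81, limma adjusted p = 0.0064). The part of other cells in the differences of the inflammasome genes was not tested.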

How the data were processed

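RNA sequencing of polyadenylated transcripts was analysed in 3 WT and 3 PGRN KO libraries. The deposited values are FPKM per gene, made by the authors. Per the labels' processing notes, CASAVA, HISAT2 2.0.5, featureCounts 1.5.0-p3, DESeq2 1.20.0 and the builds mm10 and GRCm38 were used, whereas the text of the study names HISAT and HTSeq; which is right was not settled. The sources used here do not say whether strand was used. Multiplied by the deposited gene length, FPKM were whole multiples of 1 step per library for 100.0% of values above 0 (within 0.001 of a step), which gave the fragments per gene and showed a library size of 0.925 to 1.088 times their sum. FPKM are therefore already scaled between libraries. Intervals cover the spread between libraries.

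Values were analysed as log2(FPKM + 1), which understates the change of low genes, for genes averaging at least 1 FPKM, with limma 3.58.1 (R 4.3.3; empirical Bayes with a variance trend, two-sided, no covariates, Benjamini-Hochberg threshold 0.05), tested on simulated data. Differences are PGRN KO minus WT. Libraries of a group differed beyond sampling noise (chi-square per degree of freedom of at least 4.53), so all 6 were kept. Ratios were compared by exact permutation (scipy 1.17.1). Gene models came from the GENCODE annotation of GRCm38, with the same coordinates for 98.1% of genes, and promoters from RefSeq. The members, the lists and the tests were chosen with earlier results of these data known. Beside the members and Grn, up to 4 genes past the threshold per list (by adjusted p) and the most abundant gene that did not pass were named, with Il1b, Il18, Aim2, Nlrp1a, Naip5 and Casp12, except for some items that are not reported here. Pydc3, Pydc4 and Irgb10 were not matched by symbol. Alternatives were another pseudocount (0.1), no filter, a mean FPKM of at least 5, TPM scaling, quantile normalization, no variance trend, voom on fragments, sample quality weights, a gene length correction and each library left out.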

Additional observations from a re-analysis of the deposited data

How the results depend on the processing

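The members called numbered 4 in the main analysis and 2 to 4 with 1 library left out, 2 of them without WT replicate 1 and without WT replicate 2. Those called higher numbered 1 at a mean FPKM of at least 5, where Pycard was not tested, and 1 to 2 with 1 library left out. Those called lower numbered 1 with no filter, 1 after quantile normalization and 1 to 2 with 1 library left out, each time through the loss of Nlrp3. Over all genes, 1366 were called with no filter (603 higher, 763 lower), 4225 with sample quality weights (1757 higher, 2468 lower), in which PGRN KO replicate 6 weighed 0.09, and 713 to 3668 with 1 library left out (331 to 1438 higher, 382 to 2230 lower). The higher calls numbered 529 at a mean FPKM of at least 5 and the lower calls 608 on the TPM scale. The pathway lists held 10 to 24 calls with 1 library left out. Their lower calls numbered 3 with no filter, 4 at a mean FPKM of at least 5, 4 after quantile normalization, 2 on the TPM scale and 1 to 8 with 1 library left out.

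Of the named genes that did not pass, Ninj1, Nek7, Naip2, Aim2, Casp9, Il1b and Chmp4b changed sign around 0, with the ranges here over the libraries left out in turn. Ninj1 was at -0.038 with quality weights and ranged from -0.095 to 0.20, and Nek7 ranged from -0.061 to 0.143. Naip2 was at 0.053 after quantile normalization, 0.041 under TPM, 0.111 with quality weights and 0.04 after the length correction, and ranged from -0.095 to 0.133. Aim2 was at 0.032 after quantile normalization, 0.033 under TPM and 0.013 with quality weights, and ranged from -0.077 to 0.021. Casp9 ranged from -0.058 to 0.081, Il1b from -0.296 to 0.012 (0.129 after quantile normalization) and Chmp4b from -0.057 to 0.349. The cause of these changes was not tested. No paired analysis was possible because the libraries are numbered 1 to 3 in WT and 4 to 6 in PGRN KO, so the groups share no number. The depth limits Nlrp1b most, and Pycard next.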

Other observations

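Genes of the pathway lists with a mean FPKM under 1 were not tested, and 3 of them had groups that did not overlap, as was so for 48.8% of all tested genes. These were picked after their values were seen. Mefv, which encodes the sensor pyrin, was at 1.43, 1.23 and 1.38 FPKM in WT and at 0.604, 0.682 and 0.587 FPKM in PGRN KO, from 218 and 109 fragments. With no filter its difference was -0.53 ± 0.10 in log2(FPKM + 1) (SE; limma adjusted p = 0.0358 over 22912 genes). Dhx33, an RNA helicase described upstream of NLRP3, was at 1.24 ± 0.04 FPKM in WT against 0.644 ± 0.16 FPKM in PGRN KO (SD, n = 3 each; -0.45 ± 0.11, limma adjusted p = 0.0764 with no filter). Nlrc3, a negative regulator of innate signalling, was at 1.15 ± 0.12 and 0.799 ± 0.15 FPKM (-0.26 ± 0.11, limma adjusted p = 0.266 with no filter). In the fit with no filter Mefv passed, whereas Dhx33 and Nlrc3 did not. The difference of Mefv had the sign of those of Nlrp3 and Nlrc4. Of these members, Nlrc4 passed in that fit (limma adjusted p = 0.0139) and Nlrp3 did not (limma adjusted p = 0.0739). Mefv was picked because its groups did not overlap, so its pass is no support for the calls of the members.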
